A study of Mus musculus with 39 samples.

Results

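The nuclear-encoded genes of the respiratory chain were described in single liver cells of the Krt19 lineage. Members were all gene symbols of the expression table that begin with Nduf (complex I), Sdh (complex II), Uqcr (complex III), Cox followed by a digit from 4 to 8 (complex IV) or Atp5 (ATP synthase, complex V). This rule, which uses names and no measured value, gave 82 of the 10061 symbols. They comprised 37 genes of complex I, 4 of complex II, 8 of complex III, 12 of complex IV, 16 with the Atp5 prefix of complex V (of which Atp5sl is not a subunit, leaving 15) and 5 assembly factors whose names share the prefixes. The cells were GFP-positive cells of adult mouse liver, sorted and then picked individually, from Krt19CreERT/Rosa26CAG-EGFP animals. In these animals a Cre recombinase that needs an inducing drug is driven by Krt19, a keratin of bile duct epithelium, which marks green both the cells where the recombinase acted and their descendants. All 39 cells belong to 1 labelled group, all carry both transgenic alleles, and no animal, age, inducer dose, sort, plate or sequencing run is named for any of them. Cells of 1 group are not replicates, so what follows describes these cells, with no test between them.

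The respiratory chain lies in the inner mitochondrial membrane. Complex I takes electrons from NADH and complex II takes them from succinate, both pass them to ubiquinone, complex III hands them on to cytochrome c, and complex IV gives them to oxygen. Complexes I, III and IV pump protons as they work, and complex V lets the protons return while it makes ATP. Most subunits are encoded in the nucleus and imported, while a few central ones are encoded in mitochondrial DNA and are not analysed here. Hepatocytes are known for many mitochondria and for drawing much of their energy from fatty acid oxidation, whereas the epithelium of the bile ducts is a thin lining with fewer.

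Levels are given in CPM, recovered from the deposited log2 values, and a gene was called detected in a cell at 1 CPM or more. A gene at the lowest value of the table is written as listed at 0. The CPM of a cell summed to between 351255 and 3128330, the highest sum being that of cell 24. A median of 2985 genes was detected per cell (range 1866 to 5298). No 2 cells held identical values, and Krt19 itself was detected in 20 of the 39 cells.

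Cells were grouped with 97 cell type markers, none of which is a respiratory chain gene. The grouping with the best separation (silhouette 0.389) set 6 cells, numbers 1 to 4, 38 and 39, apart from the other 33. The smaller set was hepatocyte-like, with 26 to 31 of 32 hepatocyte markers at 100 CPM or more per cell, against 0 to 15 outside it. Bile duct markers at that level numbered 0 to 2 of 15 in the hepatocyte-like cells. The other 33 were of mixed kinds and are not named as a whole. When the same tree was taken at 4 groups, a choice made after seeing the data (silhouette 0.349), these 33 divided further. A group of 22 cells was cholangiocyte-like, with a median of 5.5 of 15 bile duct markers at 100 CPM (range 2 to 7) and Spp1, Tm4sf4, Krt18 and Krt8 among its leading genes. Hepatocyte markers at that level numbered 0 to 15 of 32 per cell in the same group (median 3.5). A group of 7 was led by the matrix genes Dcn, Col1a2 and Col3a1 with the mesothelial genes Lrrn4 and Nkain4. At 100 CPM its cells held 3 to 8 of 8 mesothelial markers and 2 to 5 of 10 fibroblast or stellate cell markers. A group of 4 was led by the granule genes Elane, Mpo and Prtn3. These last groups are called by those genes here and not by a cell type. In the group of 4, granulocyte markers (among them Elane, Mpo and Prtn3) at 100 CPM numbered 0 to 7 of 8 per cell. The name thus does not hold for every cell at that level. Macrophage markers there numbered 1 to 9 of 10 and general leukocyte markers 4 to 5 of 6.

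Libraries stood apart in ways that touch the members. The ribosomal RNA precursor Rn45s held 0.383% to 1.22% of all CPM in the hepatocyte-like cells and 8.42% to 31.2% elsewhere. Lars2, which codes for the leucyl-tRNA synthetase of mitochondria, was at 0 to 30.9 CPM in the hepatocyte-like cells and at 4468 to 40183 CPM in the other 33, with no overlap. Cells 14 to 23, which have consecutive numbers and all lie in the cholangiocyte-like group, held few members. Cell 24 had the highest CPM of any cell for 22 of the 82 members. The counts of called members are also given without cells 14 to 23, an alternative added after seeing the data.

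Respiratory chain transcripts were present in every cell, but no member was detected in all of them. A cell held a median of 52 of the 82 members at 1 CPM and 28 at 100 CPM (ranges 10 to 80 and 6 to 51). Each of the 82 members was listed at 0 in at least 1 cell. A member was detected in a median of 23 cells, where the median of all genes was 9 cells, and 55 members were detected in 20 cells or more. Together the members took a median of 1.18% of the CPM of a cell, from 0.344% in cell 19 to 2.70% in cell 9.

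**Figure D1:**
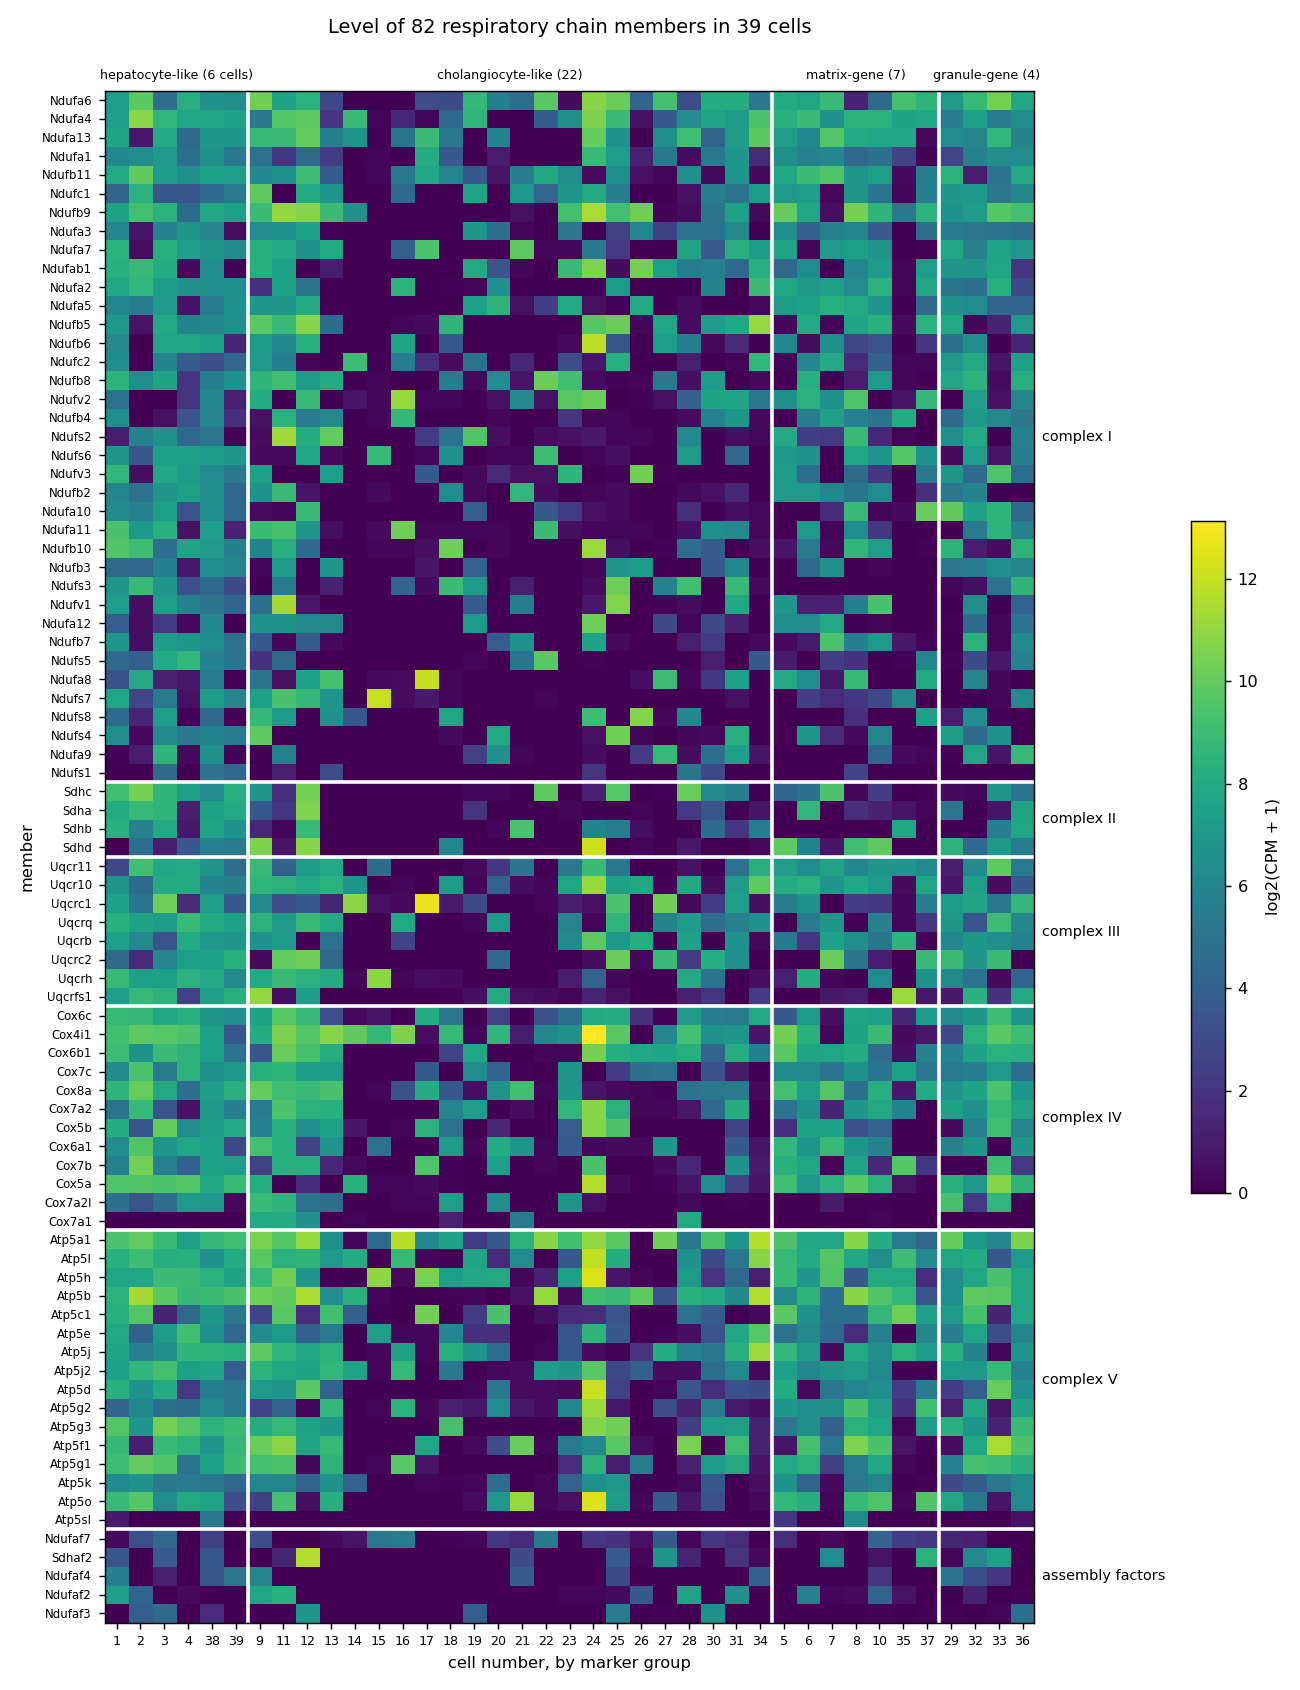
Level of each of the 82 members (rows, by complex and within it by the number of cells that held it) in each of the 39 cells (columns, by marker group), as log2(CPM + 1) on the colour scale. The 6 hepatocyte-like columns are filled almost throughout, and in cells 14 to 23 most members are at the bottom of the scale.

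The cells that held most members were not of 1 kind. Cell 38, hepatocyte-like, held 80 of 82, and the other hepatocyte-like cells 1, 2, 3, 4 and 39 held 75, 64, 76, 63 and 68. In the cholangiocyte-like group the number ran from 10 in cell 15 to 70 in cell 9, with a median of 34.5. Its cells 9, 11, 12 and 13 held 70, 66, 62 and 52 members, within or near the hepatocyte-like range, whereas cells 14 to 23 held 14, 10, 23, 19, 32, 27, 37, 23, 18 and 38. Low numbers were not confined to that run: the cholangiocyte-like cells 26, 27 and 34 held 20, 27 and 29, and cell 35, led by matrix genes, held 25. The group led by matrix genes held 25 to 66 (median 54), and the group led by granule genes held 53 to 69 (median 63.5). The hepatocyte-like range of 63 to 80 thus overlapped the upper end of each of the other groups.

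The number of all genes detected differed less than the number of members. Medians were 3024.5 genes in the hepatocyte-like cells, 2756 in the cholangiocyte-like group, 3089 in the group led by matrix genes and 3427.5 in the group led by granule genes. Cells 14 to 23 held 1866 to 3208 genes (median 2658.5), and the other 12 cholangiocyte-like cells held 2322 to 3816 (median 2893.5). The median of members in the same 2 sets of cells was 23 and 49.5.

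Where few members were detected, those few were high in some cells and lower in others. Cell 15 held 10 members, of which Ndufs7, Uqcrh and Atp5h made up 87.2% of its summed member CPM, and the median level of its detected members was 299 CPM. In cells 18, 20, 21 and 23 that median was 62.7, 35.2, 73.3 and 71.5 CPM. Cell 38 held 80 members, its leading 3 made up 12.9% of the sum, and the median of the detected members was 107 CPM. Over cells 14 to 23 the leading 3 members took a median of 56.5% of the member sum, against 28.1% in the other 12 cholangiocyte-like cells and 19.2% in the hepatocyte-like cells. The leading 3 were not the same in these cells: Uqcrc1, Cox4i1 and Ndufc2 led in cell 14, Atp5a1, Ndufv2 and Cox4i1 in cell 16, and Atp5o, Atp5f1 and Ndufa7 in cell 21. Whether the missing members were absent from the cell or lost in making the library was not tested.

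**Figure D2:**
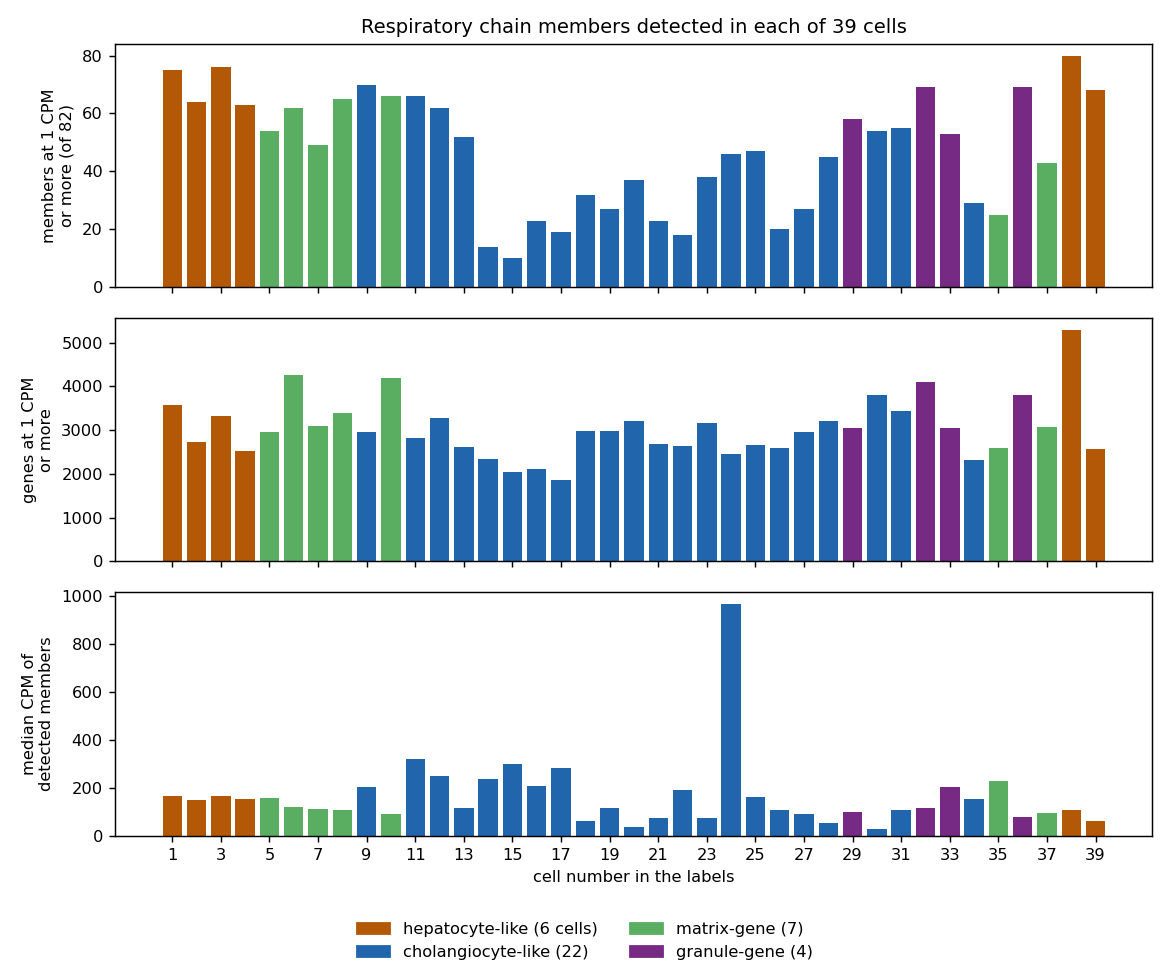
For each cell by its number, the members detected at 1 CPM (top), all genes detected at 1 CPM (middle) and the median CPM of the members detected (bottom), with colours for the marker groups. Members detected drop to between 10 and 38 in cells 14 to 23, while the median level of the detected members there, 35.2 to 299 CPM, stays within the range of the other cells apart from cell 24.

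In mean log2 level, respiratory chain genes were higher in the hepatocyte-like cells than in the other 33 cells across complexes I to V. The comparison used the difference in mean log2(CPM + 1), and a gene was called higher or lower when this reached 2 in size, which is 4-fold on that scale and understates the change of low genes. Of the 82 members, 50 were called higher, against 11.7% of all 10061 genes, and 0 were called lower, against 7.54% of all genes. Among the 1642 genes detected in at least 20 cells 16.6% were called higher, as were 35 of the 55 such members. The median difference was 2.38 for the members and -0.37 for all genes, and 77 members had a difference above 0, as did 39.5% of all genes. With each cell rescaled to an equal sum the median of all genes moved to -0.22 and that of the members to 2.99. Summed CPM differed less: the member sum had medians of 14360 (8764 to 25240) and 9770 (3792 to 72745). For complex I the medians were 4404 and 3956, and for all genes 700226 and 1069640. Of the member values, 13.4% and 47.3% were below 1 CPM, against 66.9% and 70.2% for all genes.

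The size of the difference rested partly on cells 14 to 23. Without them, 33 members were called higher and 1 lower, against 10.6% and 9.43% of all genes, and the median difference of the members was 1.41. All 33 were among the 50. Against the cholangiocyte-like group alone 55 members were called higher (13.4% of all genes) and 0 lower (7.54%). Against its 12 cells outside the run 35 were called higher (12.1%) and 1, Cox7a1, lower (9.43%). Hepatocyte-like values did not stand clear of the other 33 for any member: in 0 of 82 was the lowest hepatocyte-like cell above the highest other cell, where 1.76% of all genes met this. Rn45s and Lars2 moved with the same split of cells, as given above. With cells rescaled to an equal sum without Rn45s, Lars2 and Rorb, 57 members were called higher and 0 lower. The shares of all genes were then 14.8% and 7.09%, and the member median was 2.90. Beyond this scaling, their part in the result was not tested.

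**Figure D3:**
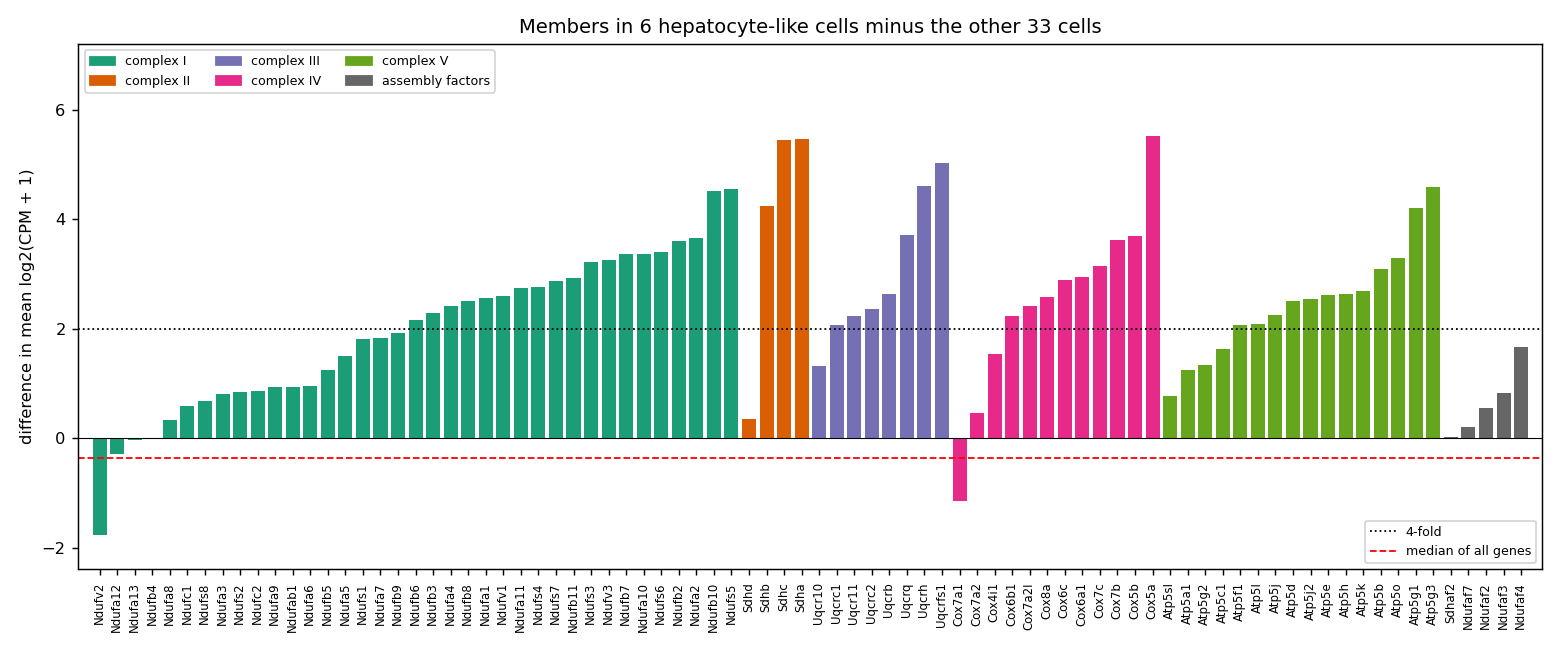
Difference in mean log2(CPM + 1) between the 6 hepatocyte-like cells and the other 33 for each member, ordered within its complex, with the 4-fold line (dotted) and the median of all genes (dashed). Bars reach from -1.76 for Ndufv2 to 5.51 for Cox5a, and 77 of the 82 lie above 0.

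By complex, the difference was largest for complex II and smallest for the assembly factors. The median difference was 4.85 for the 4 members of complex II, 2.74 for complex IV, 2.52 for complex V, 2.49 for complex III and 2.15 for complex I. It was 0.54 for the 5 assembly factors, which place cofactors and build subcomplexes without staying in the finished enzyme. Called higher were 19 of 37 members of complex I, 3 of 4 of complex II, 7 of 8 of complex III, 9 of 12 of complex IV, 12 of 16 of complex V (all 12 among its 15 subunits) and 0 of 5 assembly factors, where 11.7% of all genes were called higher. With cells 14 to 23 left out these counts were 14, 3, 3, 7, 6 and 0 in the same order, where 10.6% of all genes were called higher, and the medians of complexes III and V were 1.51 and 1.28. Assembly factors were also the least widely detected, in a median of 12 cells, against 20 for complex I, 16.5 for complex II, 26.5 for complex III, 25.5 for complex IV and 28 for complex V.

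**Figure D4:**
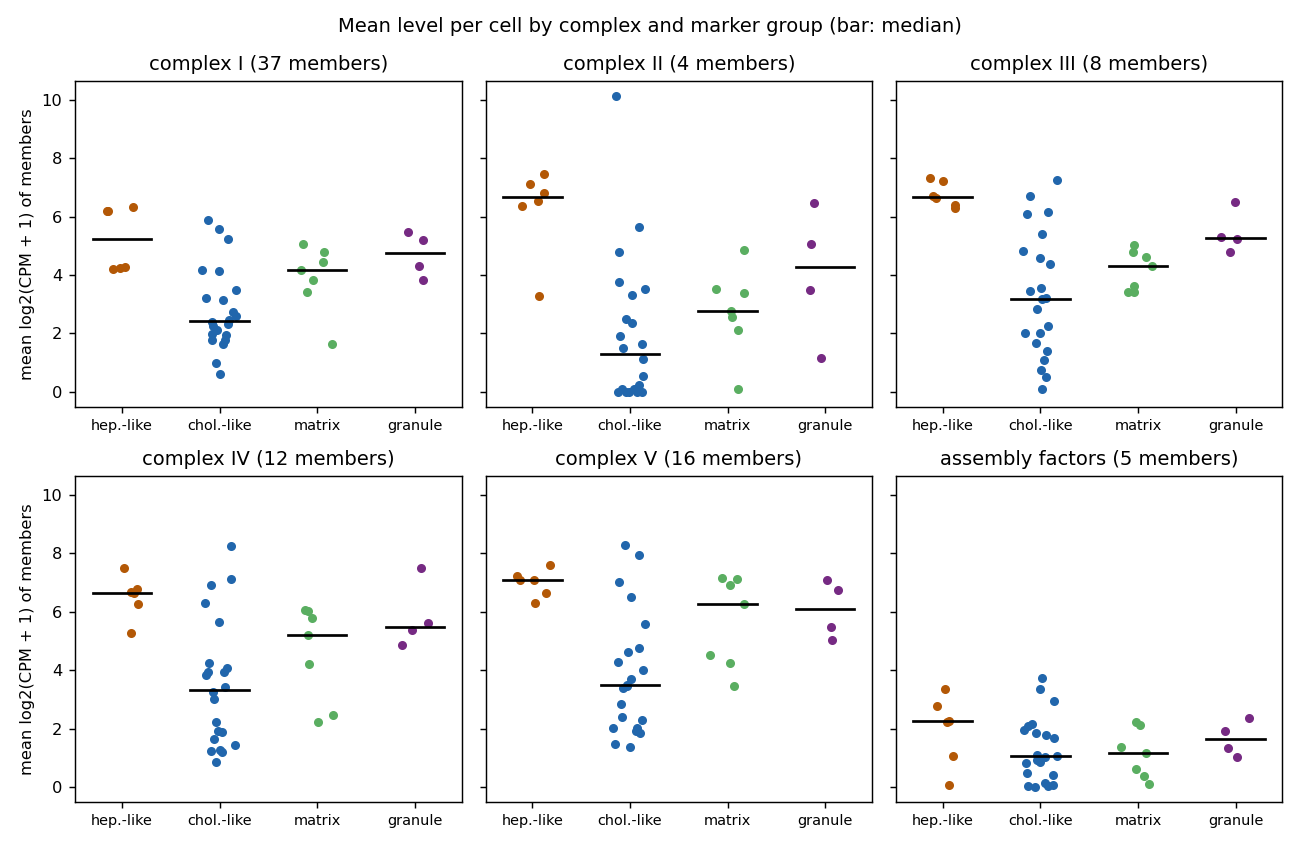
Mean log2(CPM + 1) over the members of each complex, 1 point per cell, for the hepatocyte-like, cholangiocyte-like, matrix-gene (matrix) and granule-gene (granule) groups, with the group median as a bar. For complex III the hepatocyte-like cells lie between 6.30 and 7.33 and the highest cholangiocyte-like cell reaches 7.26, and for the assembly factors all groups overlap near the bottom.

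Promoters are given for 3 members: Sdha and Cox5a, with the 2 largest differences from the other 33 cells, and Cox7a1, which was detected in cholangiocyte-like cells alone. Cox7a1 was detected in 6 of those 22 cells, and its hepatocyte-like minus cholangiocyte-like difference of -1.71 was not called over all cells. Without cells 14 to 23 it was called lower in that contrast. The granule-gene group, at 0 throughout like the hepatocyte-like cells, then differed by -2.57. Each sequence is the 250 bases before the gene's annotated start, 5′ to 3′ on the gene's strand, from RefSeq on build GRCm38.p6. Sdha lies on the minus strand (chr13:74350241-74350490), Cox5a on the plus strand (chr9:57520982-57521231) and Cox7a1 on the plus strand (chr7:30183921-30184170). Capitals mark matches, on either strand, to GCGCANGCG, a core of the letters that the nuclear respiratory factor NRF1 is known to bind.
Sdha: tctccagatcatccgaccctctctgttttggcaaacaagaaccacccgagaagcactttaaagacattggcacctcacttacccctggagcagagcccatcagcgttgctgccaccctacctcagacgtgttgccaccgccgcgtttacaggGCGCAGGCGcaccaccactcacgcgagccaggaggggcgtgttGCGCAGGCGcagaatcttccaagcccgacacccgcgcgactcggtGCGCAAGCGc
Cox5a: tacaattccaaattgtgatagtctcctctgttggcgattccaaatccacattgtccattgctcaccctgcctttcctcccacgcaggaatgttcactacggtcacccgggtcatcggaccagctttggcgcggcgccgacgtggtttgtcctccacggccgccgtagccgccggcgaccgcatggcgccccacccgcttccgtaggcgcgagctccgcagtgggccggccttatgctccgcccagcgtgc
Cox7a1: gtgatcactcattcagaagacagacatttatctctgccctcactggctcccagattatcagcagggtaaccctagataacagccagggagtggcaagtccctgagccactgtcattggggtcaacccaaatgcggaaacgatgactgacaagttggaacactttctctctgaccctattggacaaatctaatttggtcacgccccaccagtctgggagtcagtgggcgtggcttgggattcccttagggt
Sdha held 3 matches, and Cox5a and Cox7a1 held none in these windows.

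Promoters of 71 members were found in the RefSeq table, as windows of 300 bases from 250 before the start to 50 after it, and both strands were searched. GCGCANGCG was present in 21 of the 71 (29.6%), in 14.8% of 7919 measured genes with a promoter and in 7.03% of all 27025 promoters. The letters AANATGGCG, of the factor YY1, were present in 12 members (16.9%), against 6.01% and 2.76%. CCGGAAG, of the ETS factors to which GABP belongs, was present in 17 members (23.9%), against 19.5% and 9.93%. TATAAA was present in 5 members (7.04%), against 9.80% and 15.7%. Members with and without the NRF1 letters had median differences between hepatocyte-like and other cells of 2.23 and 2.41, a gap that is small beside the range of the members. A match is a description of the letters and does not show that a factor was bound.

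Complex I is the largest complex. Its core of 7 nuclear-encoded subunits holds the flavin and the iron-sulfur centres that carry electrons, and 30 accessory genes surround it. Core members were detected in a median of 18 cells and accessory members in 22.5, and median transcript lengths of the 2 sets were 1312 and 681.5 bases. Cell 38 alone held all 37 members. The most widely detected were the accessory genes Ndufa6 in 35 cells and Ndufa4 in 34. Ndufa4 keeps its complex I name, but the protein is known to work with complex IV.

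Ndufa6 also had the highest median level of complex I per length, 318 CPM per kilobase of transcript, followed by Ndufa4 with 291. Its level in CPM was 24.8 to 893 in the hepatocyte-like cells (median 128) and 0 to 1760.0 in the other 33 (median 221), so the groups overlapped throughout. Ndufs1, the large iron-sulfur subunit of the core, was at the other end, detected in 9 cells. Its highest value was 33.7 CPM in cell 28, followed by 31.1 CPM in cell 38. It was detected in 3 hepatocyte-like, 5 cholangiocyte-like, 1 matrix-gene and 0 granule-gene cells.

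Most of complex I was higher in the hepatocyte-like cells, but the members at the lower end of the contrast were also mainly from complex I. Ndufs5, an accessory subunit of the intermembrane space, differed by 4.56 and Ndufb10, of the membrane arm, by 4.51. Ndufs5 was detected in all 6 hepatocyte-like cells at 14.3 to 412 CPM (median 43.5) and in 11 of the other 33, where its highest value, 887 CPM, was in cell 22. Ndufv2, an iron-sulfur subunit next to the NADH site, went the other way with a difference of -1.76. Its hepatocyte-like values were 0 to 68.4 CPM (median 2.14) and those of the other 33 were 0 to 2130.0 CPM (median 15.3). Without cells 14 to 23 this difference was -2.27, and Ndufv2 was then the 1 member called lower. Ndufa12 (-0.29), Ndufa13 (-0.04) and Ndufb4 (-0.02), all accessory subunits, had differences near 0, and -1.05, -1.19 and -0.85 without cells 14 to 23.

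Complex II, succinate dehydrogenase, is the smallest complex, belongs to the citric acid cycle as well, and has no subunit in mitochondrial DNA. Sdha carries the flavin that oxidises succinate, Sdhb the iron-sulfur centres, and Sdhc and Sdhd anchor the enzyme in the membrane. All 4 were detected together in 6 cells, 3 of them hepatocyte-like, and none of the 4 in 10 cells. No hepatocyte-like cell was among those 10, since each held 3 or 4 of the members. Sdhc was detected in the most cells, 21, and had the highest median level per length, 0.681 CPM per kilobase, while Sdhb and Sdhd were detected in 16 cells each.

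Sdha was measured at 266, 446, 386, 1.09, 181 and 260 CPM in hepatocyte-like cells 1, 2, 3, 4, 38 and 39. In the other 33 its median was 0.129 CPM and its highest value 1538 CPM, and it was detected in 11 of them. Cell 4 was thus low and 1 cholangiocyte-like cell, cell 12, was above all hepatocyte-like cells. The difference was 5.46, and 4.88 without cells 14 to 23. Sdhc was detected in all 6 hepatocyte-like cells at 78.7 to 1378 CPM (median 346) and in 15 of the other 33 (median 0.148 CPM), a difference of 5.45. Sdhb, with a hepatocyte-like median of 151 CPM, differed by 4.24.

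Sdhd, the second anchor, did not follow its partners. Its hepatocyte-like values ran from 0 to 51.4 CPM (median 19.6) and it was detected in 4 of those 6 cells. In the group led by granule genes it was detected in all 4 cells at 21.6, 43.9, 130 and 354 CPM, and in 4 of the 7 cells led by matrix genes with a highest value of 949 CPM. Cell 24 had the highest level of all, 4500.2 CPM. The hepatocyte-like minus other difference of Sdhd was 0.34, and -0.75 without cells 14 to 23.

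**Figure D5:**
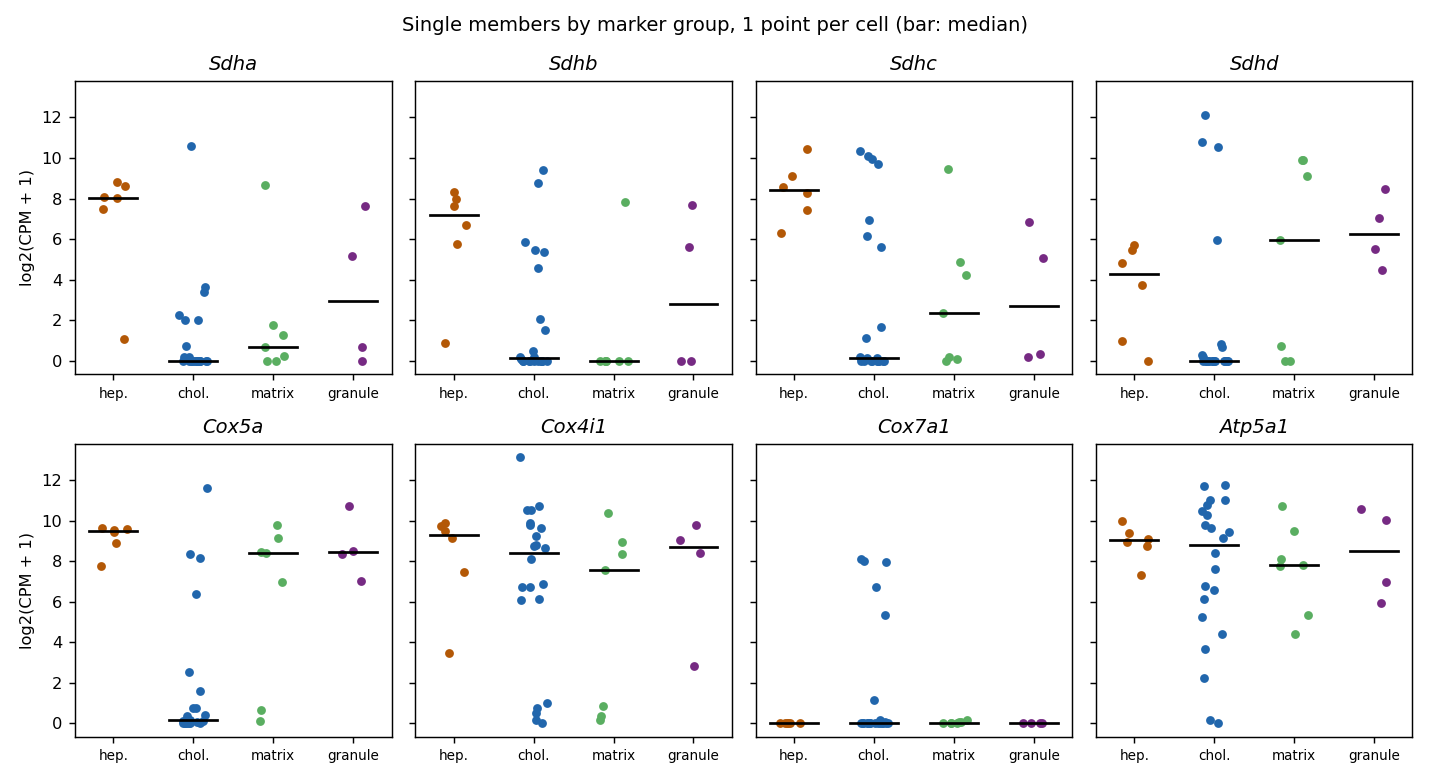
Level of 8 members as log2(CPM + 1), 1 point per cell, in the hepatocyte-like (hep.), cholangiocyte-like (chol.), matrix-gene (matrix) and granule-gene (granule) groups, with the group median as a bar. Sdha, Sdhb and Sdhc are mostly near 0 outside the hepatocyte-like cells, Cox5a is near 0 mainly in the cholangiocyte-like group, Cox7a1 is above 1 CPM in 6 cholangiocyte-like cells only, and Atp5a1 spans a wide range in all groups.

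Complex III was held completely by the hepatocyte-like cells, as were the 15 subunits of complex V. All 8 members of complex III were detected in 7 cells, and these were the 6 hepatocyte-like cells and 1 other. Uqcrfs1, the Rieske iron-sulfur protein that takes electrons from ubiquinol, differed by 5.03. Its hepatocyte-like values were 4.91 to 438 CPM (median 232), and in the other 33 cells it was detected in 11 with a median of 0.484 CPM. The highest of these were 2289.5 CPM in cell 35, led by matrix genes, and 2038 CPM in cell 9, which is cholangiocyte-like. Cholangiocyte-like cells 12 and 20 were at 150 and 244 CPM, and granule-gene cells 32 and 36 at 318 and 245 CPM. Cells 24, 28, 30, 33 and 34 were at 1.26 to 3.82 CPM. Uqcrh, the hinge protein that helps cytochrome c to dock, differed by 4.60, with hepatocyte-like values of 76.4 to 468 CPM (median 205).

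The small subunit Uqcr10 had the highest median level of complex III per length, 310 CPM per kilobase, and Uqcrfs1 the lowest, 0.619. Uqcr10 was detected in 28 cells and differed by 1.32, the smallest difference of the complex. It was low in the group led by granule genes, where its median was 6.54 CPM and it was detected in 2 of 4 cells, while the cholangiocyte-like median was 147 CPM. Uqcr11 was the most widely detected member with 29 cells. The core proteins Uqcrc1 and Uqcrc2 were detected in 27 and 22 cells, and Uqcrc1 reached 6846 CPM in cell 17, its highest value.

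In complex IV the clearest pattern by group was that of Cox5a, which binds to the matrix side of the enzyme. Cox5a was measured at 737, 757, 689, 798, 216 and 479 CPM in hepatocyte-like cells 1, 2, 3, 4, 38 and 39. It was detected in all 4 cells led by granule genes (median 345 CPM) and in 5 of 7 led by matrix genes (median 337 CPM), but in 6 of 22 cholangiocyte-like cells (median 0.123 CPM). In the cholangiocyte-like group the highest value was 3133 CPM in cell 24, so the ranges overlapped. The hepatocyte-like cells differed from the other 33 by 5.51 and from the cholangiocyte-like group by 7.25. The matrix-gene and granule-gene groups differed from the same cholangiocyte-like cells by 4.33 and 6.75, and by 3.52 and 5.94 without cells 14 to 23.

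Its neighbour in the enzyme, Cox5b, was also higher in the hepatocyte-like cells (difference 3.69, median 205 CPM), and was detected in 11 of 22 cholangiocyte-like cells. Cox4i1, a regulatory subunit that joins early in assembly, had the highest median level of the complex per length, 438 CPM per kilobase, and was detected in 31 cells. Its medians were 638 CPM in the hepatocyte-like and 340 CPM in the cholangiocyte-like cells, a difference of 1.24, and it was detected in 4 of the 7 cells led by matrix genes. The isoform partner Cox4i2 is not analysed here, nor are Cox6a2 and Cox6b2.

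Of the Cox7a genes, which code for alternative forms of a small subunit, Cox7a1 is known as the form of heart and skeletal muscle and Cox7a2 as the form of liver and most tissues. Cox7a1 was detected in 6 cells, all cholangiocyte-like, at 252, 274, 106, 1.21, 40.1 and 253 CPM in cells 9, 11, 12, 18, 21 and 28. It was listed at 0 in all 6 hepatocyte-like cells and in all 4 cells led by granule genes. Cox7a2 was detected in 26 cells across all groups, with medians of 38.3 CPM in the hepatocyte-like cells, 11.2 in the cholangiocyte-like group, 59.0 in the group led by matrix genes and 185 in the group led by granule genes. Of the 6 cells with Cox7a1, cells 9, 11, 12 and 18 also held Cox7a2, at 42.8, 693, 341 and 63.1 CPM, so both forms occurred in the same library. Cox7a2l, which joins complexes III and IV into supercomplexes, was detected in 5 of 6 hepatocyte-like cells and in 0 of the 7 cells led by matrix genes.

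The remaining 6 small subunits of complex IV were called higher in the hepatocyte-like cells, and 4 of them without cells 14 to 23. Cox7b differed by 3.61, Cox7c by 3.15, Cox6a1 by 2.95, Cox6c by 2.89, Cox8a by 2.59 and Cox6b1 by 2.23. The calls of Cox6b1 and Cox6c end without cells 14 to 23, where they differed by 0.37 and 1.83. Cox6c was the most widely detected member of the complex, in 32 cells. Its hepatocyte-like values were 83.4 to 441 CPM (median 264) and those of the other 33 were 0 to 836 CPM (median 48.5), so the upper ends overlapped.

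ATP synthase was the most widely detected complex. Its catalytic head F1 is built from Atp5a1, Atp5b, Atp5c1, Atp5d and Atp5e, and all 5 were detected together in 22 cells, including all 6 hepatocyte-like, all 4 granule-gene, 5 of 7 matrix-gene and 7 of 22 cholangiocyte-like cells. Atp5a1, the alpha subunit, was the most widely detected of all 82 members, with 37 cells. Its medians were 525 CPM in the hepatocyte-like cells, 453 in the cholangiocyte-like group, 221 in the group led by matrix genes and 596 in the group led by granule genes, and its difference was 1.24. Atp5b, the beta subunit that forms ATP, was detected in all 6 hepatocyte-like cells at 349 to 2640.4 CPM (median 577) and in 14 of 22 cholangiocyte-like cells (median 178), a hepatocyte-like minus other difference of 3.09 that was 1.23 without cells 14 to 23 and then no longer called. Of the 5 head subunits 3 were called higher over all cells and 0 without cells 14 to 23.

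The ring of c subunits, which turns as protons pass, is encoded by 3 genes, Atp5g1, Atp5g2 and Atp5g3, whose mature proteins are known to be the same. All 3 were detected in every hepatocyte-like cell, but at different levels. Atp5g3 and Atp5g1 had hepatocyte-like medians of 632 and 529 CPM and differences of 4.58 and 4.20. Atp5g2 had a hepatocyte-like median of 31.8 CPM (range 18.6 to 77.7) and a difference of 1.33. In the group led by matrix genes Atp5g2 had a median of 114 CPM, and there it differed from the cholangiocyte-like group by 3.90 where Atp5g1 and Atp5g3 differed by 1.34 and 1.95. These matrix-gene differences were 3.53, -0.35 and -0.32 without cells 14 to 23. The summed level of the 3 genes was 604 to 2133 CPM in the hepatocyte-like cells (median 1125) and 0.0453 to 4485 CPM in the cholangiocyte-like group (median 75.7). Reads from copies of these genes elsewhere in the genome were not separated here.

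The stalk and membrane subunits were complete in the hepatocyte-like cells. All 7 of Atp5f1, Atp5h, Atp5j, Atp5j2, Atp5k, Atp5l and Atp5o were detected in each of the 6 cells and called higher, with a median difference of 2.54. Without cells 14 to 23, 4 of the 7 were called higher, since Atp5f1, Atp5j and Atp5l then differed by 1.04, 1.31 and 1.05. Atp5l, a small membrane subunit, had the highest median level of the complex per length, 400 CPM per kilobase, and was detected in 33 cells. Atp5o, which ties the stalk to the head, was detected in 9 of 22 cholangiocyte-like cells. Its highest value was 5509.7 CPM in cell 24. Atp5sl was the least detected member of all, in 3 cells, at 3.23, 78.0 and 37.8 CPM in cells 5, 8 and 38. It carries the prefix but is not a subunit of the ATP synthase.

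The 5 assembly factors were low. Ndufaf7, a methyltransferase acting on complex I, was detected in 20 cells and had the highest median level per length, 0.765 CPM per kilobase. Ndufaf4, which helps to build complex I, had the largest hepatocyte-like minus other difference, 1.67. Ndufaf3 was detected in the fewest cells, 8, and Ndufaf2, a helper of late complex I assembly, in 10. Sdhaf2, which helps to attach the flavin to Sdha, was detected in 14 cells, with 3164 CPM in cell 12 and 330 CPM or less in the others. Cell 12 was also the cell with the highest Sdha, at 1538 CPM.

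The groups of 7 and 4 cells were set against the same 22 cholangiocyte-like cells. In the group led by granule genes 47 members were called higher and 1 lower, against 18.3% and 5.39% of all genes, with a median difference of 2.16 for the members and 0.00 for all genes. Without cells 14 to 23 the counts were 21 and 5, against 17% and 7.01% of all genes, and the member median was 1.16. In the group led by matrix genes 23 members were called higher and 2 lower, against 12.7% and 2.96%, with a median difference of 0.85. Without cells 14 to 23 the counts were 16 and 7, against 11.6% and 4.48%, and the member median was -0.17, so its direction turned. Single members turned too, 32 of 82 in the matrix-gene contrast, 14 in the granule-gene contrast and 9 in the contrast of hepatocyte-like and other cells. All 3 contrasts against the cholangiocyte-like group share those cells. Members were also more widely detected than most genes. Among the 1642 genes detected in at least 20 cells, 28.1% were called higher in the granule-gene contrast and 20.1% in the matrix-gene contrast. Of the 55 such members 63.6% and 34.5% were.

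Single members differed widely between these groups. In the group led by granule genes the largest differences were those of Cox5a, of Ndufa10 (6.58), an accessory subunit of complex I, Atp5g1 (4.86), Ndufv3 (4.61), next to the NADH site, and Sdhd (4.49). Ndufa10 was detected in all 4 cells at 20.4, 188, 381 and 969 CPM and in 5 of 22 cholangiocyte-like cells. The most negative was Uqcr10, the 1 member called lower, followed by Cox7a1 (-1.71), Ndufaf2 (-1.23), Ndufaf7 and Ndufa8 (-0.94), an accessory subunit of complex I.

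In the group led by matrix genes the leading members were Atp5c1 (4.50), the shaft of the ATP synthase, Cox5a (4.33), Ndufs6 (4.27) and Ndufa2 (4.05), both accessory subunits of the arm that takes up NADH, and Atp5g2 (3.90). Atp5c1 was detected in all 7 cells at 25.6 to 1210.2 CPM (median 184) and in 13 of 22 cholangiocyte-like cells (median 2.19 CPM). At the other end were Ndufs3 (-2.89), Cox7a2l (-2.06), Cox4i1 (-1.72), Cox7a1 (-1.66) and Ndufs8 (-1.41), an iron-sulfur subunit of the complex I core. Ndufs3, a core subunit of the arm of complex I that faces the matrix, was listed at 0 in all 7 cells of this group, where 10 of 22 cholangiocyte-like and all 6 hepatocyte-like cells held it. Against the cholangiocyte-like group the hepatocyte-like cells had their largest differences in Cox5a (7.25), Sdha (5.87), Sdhc (5.53), Uqcrfs1 (5.49) and Atp5g3 (5.33), and their lowest in Cox7a1 (-1.71), Ndufv2 (-1.35), Ndufa12 (-0.11), Ndufaf7 (0.06) and Ndufs8 (0.29).

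Other mitochondrial genes were counted in the same contrast of hepatocyte-like and other cells, in which 11.7% of all genes were called higher and 7.54% lower. Of 10 other chain parts and carriers 6 were called higher, among them Cyc1, the cytochrome subunit of complex III that the prefixes miss, with a difference of 4.94. Cytochrome c itself, Cycs, had a difference of 2.37. For fatty acid oxidation 11 of 19 genes were called higher and 0 lower. Acaa1b, a thiolase of peroxisomes, led with a hepatocyte-like median of 650 CPM, and Cpt1a, which admits fatty acids to mitochondria, differed by 0.68. For the citric acid cycle and pyruvate entry 9 of 20 were called higher, led by Suclg1 (5.19), with Idh2 lowest (-1.37).

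In glycolysis 4 of 16 genes were called higher and 2 lower, with a median difference of -0.10, where the median of all genes was -0.37. Pgk1 differed by 4.96 and Aldoa by -3.23. Among the carriers and chaperones of mitochondria 5 of 15 were called higher and 1 lower, namely Slc25a4, an exchanger of ADP and ATP, at -4.93. Slc25a4 was detected in 0 of 6 hepatocyte-like cells, while the related exchanger Slc25a5 was detected in all 6 with a median of 358 CPM. Antioxidant genes had 6 of 9 called higher, led by Cat (6.35), the catalase of peroxisomes, and 1 lower, Ucp2 (-3.21). Of 12 regulators of respiratory genes 0 were called higher and 2 lower. Tfam, which packages mitochondrial DNA and takes part in its transcription, was at 1.41 and Myc at -3.65. Assembly factors outside the prefixes had 1 of 16 called higher, Surf1 (2.91), which serves complex IV. Without cells 14 to 23 the counts called higher were 6 of the other chain parts, 10 in fatty acid oxidation, 7 in the citric acid cycle list, 3 in glycolysis, 5 carriers, 6 antioxidant genes, 0 regulators and 1 assembly factor.

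The members were set beside other large assemblies of the cell. Cytosolic ribosomal protein genes had a median difference of 1.74, with 44 of 98 called higher, mitochondrial ribosomal protein genes 0.80, with 9 of 73, and proteasome genes 1.40, with 12 of 38, where 11.7% of all genes were called higher. The member median of 2.38 lay above all 3. With cells 14 to 23 left out the medians were 1.09, 0.59 and 0.94, with 26, 7 and 8 called higher, and the member median was 1.41. These values describe the 39 cells and were not tested against each other.

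Members varied together across cells beyond the hepatocyte-like contrast. Within the 33 other cells, pairs among the 9 members detected in at least 75% of them had a median Spearman correlation of 0.277, where pairs among 619 genes passing the same filter had 0.00769. Within the 22 cholangiocyte-like cells the median over 38 members detected in at least 50% of them was 0.289, against 0.0153 over 1777 genes. Every such pair shares the library and scaling of its cells, so these values describe the libraries and carry no p-value.

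The mean level of the members in a cholangiocyte-like cell was set beside that of other gene lists and beside the number of genes detected. Over the 22 cells the Spearman correlation of the members' mean log2(CPM + 1) was 0.839 with the cytosolic ribosomal genes and 0.826 with the mitochondrial ribosomal genes (Pearson 0.769 and 0.846, and 0.751 and 0.909 without the 2 cells farthest on the second measure). It was 0.731 with fatty acid oxidation, 0.700 with the citric acid cycle and 0.596 with glycolysis. With the number of genes detected it was 0.483, and with the share of Rn45s 0.593. With the regulators, most of them near the detection limit, it was 0.194. All these measures come from the same library of each cell, and 14 relations like these were set side by side as descriptions.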

How the data were processed

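Single-cell RNA-seq of 39 cells was deposited as 1 table of log2 values for 13568 RefSeq transcripts. Bowtie 0.12.9, eXpress 1.5.1, edgeR and the mouse build mm9 were used, per the submitters' processing notes, with roles and settings not given in the sources used here. Scale and log base were inferred from the values. Each deposited log2 value was raised as a power of 2, the lowest value (log2 -2.58, linear 0.167) was subtracted, and the result was called CPM. Transcripts of a symbol were summed, which took the 94 rows of the members to 82 symbols, 9 of which have more than 1 transcript. Low values followed steps worth 1 read only in part (within 2% of a whole multiple for 18.1% to 48.0% of them per cell), so counts were not recovered and read depth is unknown. The plan named normalised linear values, and its form for them was applied to the back-transformed values.

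Markers, member roles, lists and the choice of members were made with earlier results of these data known. Cells were grouped by Ward linkage on log2(CPM + 1) of 97 markers with 2 to 6 clusters of at least 3 cells, by silhouette. The same 6 and 33 cells came from 1000 variable genes outside the markers and members. Genes were named as the ends of each complex in level or cells detected, as paralogues, and as the 5 largest and 5 smallest differences per contrast; other named genes were chosen after their values were seen. Transcript lengths came from GENCODE for all 94 rows. No cell was removed, no doublet caller was run and no count model was fitted. Python 3.11.15, numpy 2.4.6, pandas 2.3.3, scipy 1.17.1, scikit-learn 1.9.0 and matplotlib 3.10.9 were used. Alternatives in detection level, pseudocount, scaling, transcripts, cells, clusters and fold were tried.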

Additional observations from a re-analysis of the deposited data

How the results depend on the processing

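Of 123 alternative values for the counts, shares, levels, medians and correlations over all members, 95 stayed within 1 SD over cells or members, 1.5 times for counts or 0.1 for correlations, 27 moved further and 1 turned direction. That 1 was the median difference of the matrix-gene group against the cholangiocyte-like group, 0.85 over all cells and -0.17 without cells 14 to 23. Some of the 95 could not have moved, since rescaling to an equal sum keeps a share and the clusters from variable genes held the same cells. The SD limit was also wide: for the median member difference of hepatocyte-like and other cells it was 1.51, so 1.41 counted as unmoved from 2.38. Single members are outside this tally, and some turned without those cells, such as Sdhd from 0.34 to -0.75 in the contrast of hepatocyte-like and other cells. Detection at 100 CPM gave 28 members per cell and 11 cells per member, and any value above the lowest gave 31 cells per member. For hepatocyte-like cells against the other 33, members called higher numbered 23 at 8-fold, 15 with a pseudocount of 10 CPM and 33 without cells 14 to 23, and members called lower numbered 2 at 2-fold, 1 without cells 38 and 39 and 1 without cells 14 to 23. For the group led by matrix genes against the cholangiocyte-like group, those higher numbered 39 at 2-fold, 10 at 8-fold, 36 with a pseudocount of 0.1 and 6 with 10, and those lower numbered 9 at 2-fold, 0 at 8-fold, 4 with a pseudocount of 0.1, 0 with 10 and 7 without cells 14 to 23. For the group led by granule genes, those higher numbered 17 at 8-fold, 12 with a pseudocount of 10 and 21 without cells 14 to 23, and those lower numbered 4 at 2-fold, 0 at 8-fold, 0 with a pseudocount of 10, 0 under both rescalings and 5 without cells 14 to 23. Apart from the fold itself, the cause was not tested. The difference in the median cell's mean member level between hepatocyte-like and other cells, 2.59, ranged from 1.47 with a pseudocount of 10 to 3.44 against the cholangiocyte-like group. The depth of each cell is unknown, there is 1 labelled group, and no animal or run is named, so cell type, library and animal cannot be told apart. No paired analysis was possible because the labels give 1 group.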
